A study of Mus musculus with 6 samples.

Results

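The genes labelled here as regulators of transcription and signalling stood higher in the tumour-propagating cells (TPCs) than in the non-TPCs of all 3 mice examined. The mice were of a small cell lung cancer model, and the genes are Cited1, Dmrta2, Pax1, Nr0b2, Tox, Gpr62, Sh3bgr, Rnf157, Strip2 and Mapk4. These genes are 10 of 18193 measured, and the label names no class that was tested. They were chosen on this contrast, as the named genes with the smallest p among those whose brightest probe set was higher in the TPC array of every mouse, so their differences are a description and carry no test. No gene of the array was higher in TPCs past the threshold, a limma p adjusted by Benjamini-Hochberg under 0.05 (0.0% of 18193 genes, with 386 higher at an unadjusted p under 0.05), and the adjusted p of the 10 ranged from 0.275 to 0.384. Each is therefore a candidate seen in 3 mice, not a firm call.

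The tumours came from mice of a mixed C57BL/6;129Sv/J background with triple loss of Rb, p53 and p130 after infection with Adeno-Cre, and were taken 6 to 7 months later. Both fractions share that genotype and that infection, no sample was treated, and the sources used here name neither the promoter that drives Cre nor the ages of the animals or the number of tumours per mouse. Cells stained for CD24, CD44 and EpCAM were sorted into TPCs and non-TPCs, whose gates these sources do not give. Mice 1127, 920 and 0107 each gave 1 array per fraction, so 3 TPC and 3 non-TPC arrays were compared. Values are RMA levels on a log2 scale, on which a difference of 1 is a doubling, and differences are TPC minus non-TPC.

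As background, small cell lung cancer is a neuroendocrine tumour whose cells differ in their capacity to start new tumours, and cells able to do so over the long term are called tumour-propagating. The 10 genes have different known roles. Cited1, Dmrta2, Pax1, Nr0b2 and Tox act in the nucleus, on DNA or on other transcription factors. Gpr62, Sh3bgr, Rnf157, Strip2 and Mapk4 encode a receptor, a thioredoxin-like protein, a ubiquitin ligase, a scaffold and a kinase.

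The region before the start site is shown for the genes whose windows held a repeated CCAAT box, a short element known to be bound by the factor NF-Y, with Nr0b2, whose window held a TATA box, for contrast. The sequences are from RefSeq (GRCm38.p6), cover the 250 bases before the annotated start, run 5′ to 3′ on the strand of the gene, and have CCAAT, or its reverse complement ATTGG, in capitals; in Nr0b2 the capitals mark TATAAA.
Dmrta2 (chr4:109977775-109978024, + strand): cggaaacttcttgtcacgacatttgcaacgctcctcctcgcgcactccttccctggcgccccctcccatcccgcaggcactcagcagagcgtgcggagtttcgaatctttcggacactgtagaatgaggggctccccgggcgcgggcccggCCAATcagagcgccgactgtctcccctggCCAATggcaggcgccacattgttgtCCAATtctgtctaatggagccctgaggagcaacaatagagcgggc
Pax1 (chr2:147364744-147364993, + strand): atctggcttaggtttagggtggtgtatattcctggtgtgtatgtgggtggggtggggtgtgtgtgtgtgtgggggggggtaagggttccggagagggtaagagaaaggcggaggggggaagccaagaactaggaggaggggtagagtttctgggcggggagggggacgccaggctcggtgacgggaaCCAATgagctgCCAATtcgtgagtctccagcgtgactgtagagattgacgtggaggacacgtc
Rnf157 (chr11:116413033-116413282, - strand): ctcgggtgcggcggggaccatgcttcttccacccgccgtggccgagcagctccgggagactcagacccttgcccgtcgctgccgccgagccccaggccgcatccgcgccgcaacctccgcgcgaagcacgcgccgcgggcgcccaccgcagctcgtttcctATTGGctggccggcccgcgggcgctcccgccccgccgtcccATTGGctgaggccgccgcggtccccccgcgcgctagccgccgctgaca
Strip2 (chr6:29916763-29917012, + strand): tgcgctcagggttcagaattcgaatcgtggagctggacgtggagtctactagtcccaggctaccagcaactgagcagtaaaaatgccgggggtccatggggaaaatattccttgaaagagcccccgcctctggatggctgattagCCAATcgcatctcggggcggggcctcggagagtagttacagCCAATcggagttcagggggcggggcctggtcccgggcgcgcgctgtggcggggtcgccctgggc
Nr0b2 (chr4:133553126-133553375, + strand): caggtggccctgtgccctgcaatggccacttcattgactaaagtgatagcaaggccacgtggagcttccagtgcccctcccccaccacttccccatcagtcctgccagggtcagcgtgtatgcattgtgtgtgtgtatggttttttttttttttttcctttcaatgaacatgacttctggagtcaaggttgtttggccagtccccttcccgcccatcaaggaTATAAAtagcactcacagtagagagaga

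Windows were found for 7 of the 10 genes, and for Cited1, which has 3 listed starts, the one farthest upstream was searched. On either strand, CCAAT was present in 4 of the 7 windows, against 33.8% of 32851 windows of the same length. All 4 held it 2 or more times, as did 10.1% of all windows: Dmrta2 3 times, at 99, 70 and 45 bases before the start, Pax1 at 63 and 52, Rnf157 at 89 and 48, and Strip2 at 105 and 64. The GC box GGGCGG was in 5 of the 7 windows (32.7% of all windows) and TATAAA in those of Nr0b2 and Cited1 (12.4%), 28 and 13 bases before the start. CAGCTG, an E-box, occurred 2 times in the Gpr62 window and in 13.0% of all windows, the E-box CACGTG in that of Nr0b2 (6.02%), and the cyclic AMP element TGACGTCA in none of the 7 (1.55%). In GC content the 7 windows ranged from 50% in Nr0b2 to 77.2% in Rnf157, beside a median of 52.4%. These motifs were chosen with the sequences in view, and a match is a description of the letters.

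**Figure D1:**
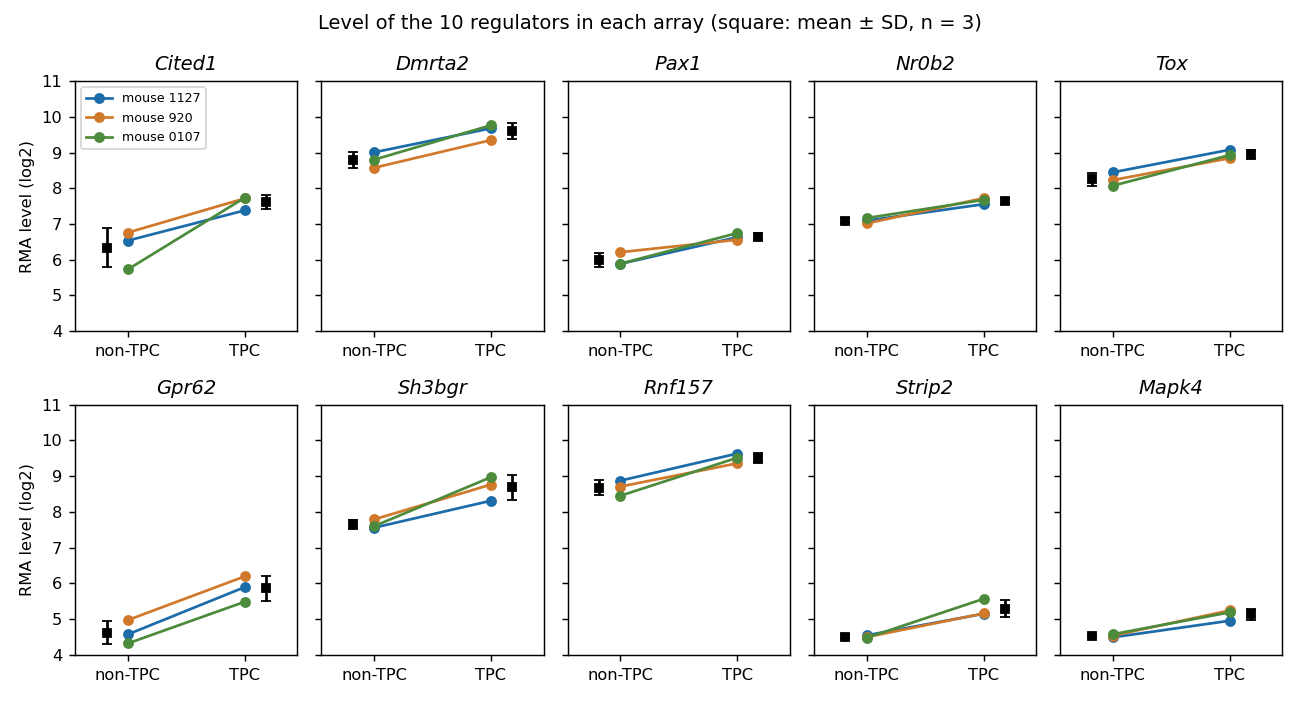
RMA level (log2) of each of the 10 genes in the non-TPC and TPC array of mice 1127, 920 and 0107 (lines join the arrays of a mouse), with the mean ± SD of each fraction (n = 3) as black squares. In every panel all 3 lines go up and the lowest TPC array lies above the highest non-TPC array.

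Among the nuclear factors, Cited1, a co-regulator that binds CBP and p300 and has no DNA-binding domain of its own, had the largest difference. Its only probe set, 1449031_at, read 7.38, 7.72 and 7.74 in the TPCs of mice 1127, 920 and 0107, and 6.53, 6.76 and 5.73 in their non-TPCs. The non-TPC array of mouse 0107 was the lowest of the 6, and the fractions did not overlap. Cited1 differed by 1.27 (SE 0.28, 95% interval 0.60 to 1.94), a 2.41-fold difference, made of 0.85, 0.96 and 2.01 in the 3 mice.

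Dmrta2, a doublesex-related DNA-binding factor of the developing brain, read 9.68, 9.35 and 9.76 in TPCs of mice 1127, 920 and 0107 and 9.01, 8.57 and 8.80 in non-TPCs. Mouse 920 was the lowest of its fraction on both sides, and the 2 fractions were set apart by 0.34 at their nearest arrays. The difference was 0.80 (SE 0.18, 95% interval 0.38 to 1.23), from 0.67 in mouse 1127 to 0.97 in mouse 0107. Only 1 probe set is annotated to it.

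Tox, an HMG-box protein known for its role in T cell development and exhaustion and also expressed in neural progenitors, read 9.08, 8.84 and 8.93 in TPCs and 8.45, 8.23 and 8.07 in non-TPCs of mice 1127, 920 and 0107 on its brightest probe set, 1425484_at. It differed by 0.70 (SE 0.15, 95% interval 0.34 to 1.06), and by 0.61 to 0.86 within mice. A second Tox probe set, 1442039_at, gave 7.60, 7.29 and 7.62 in TPCs and 6.82, 6.60 and 6.91 in non-TPCs, again with no overlap, and differed by 0.73. The third, 1425483_at, was dim, at a mean of 4.83, and differed by 0.07 with the sign turned in mouse 0107 (-0.35). None of the 6 T and NK cell markers examined (Cd3e, Cd3g, Cd3d, Cd4, Cd8a and Nkg7) exceeded the median of all genes, a level of 6.91. Of these markers 1, Cd3e, was higher in TPCs of all 3 mice (mean difference 0.18), as 19.7% of all genes were, and 0 were lower in all 3. The part of T cells in the Tox difference was not tested.

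Nr0b2, an orphan nuclear receptor without a DNA-binding domain that represses other receptors in bile acid metabolism, read 7.55, 7.72 and 7.67 in TPCs and 7.09, 7.02 and 7.17 in non-TPCs of mice 1127, 920 and 0107. Its difference was the smallest of the 10, at 0.56 (SE 0.12, 95% interval 0.26 to 0.85), a 1.47-fold difference. It was also the steadiest within fractions, with a residual SD of 0.08 against a median of 0.23 over all genes. Of 4 hepatocyte markers measured, Alb, Apoa1 and Apob were below the median level and Ttr, a carrier of thyroid hormone, was above it.

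Pax1, a paired-box factor of the sclerotome and the thymus, read 6.63, 6.56 and 6.75 in TPCs and 5.88, 6.21 and 5.89 in non-TPCs of mice 1127, 920 and 0107 on 1449359_at. The non-TPC array of mouse 920 came closest to the TPCs, and the differences within mice were 0.75, 0.35 and 0.86 (mean 0.65, SE 0.15, lower end of the 95% interval 0.30). The dimmer Pax1 probe set, 1443476_at, differed by 0.60 with TPCs above non-TPCs in 3 of 3 mice, though there the fractions overlapped: the TPC array of mouse 1127 was at 5.28 and the non-TPC array of mouse 920 at 5.30. Of the thymic epithelium markers Foxn1, Psmb11 and Prss16, 0 of 3 exceeded the median level, and Pax1, at a mean of 6.32, did not either. Foxn1 was higher in TPCs of all 3 mice (0.18, 0.46 and 0.13), as 19.7% of all genes were, and Psmb11 and Prss16 varied in sign. The part of thymic cells in the Pax1 difference was not tested.

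**Figure D2:**
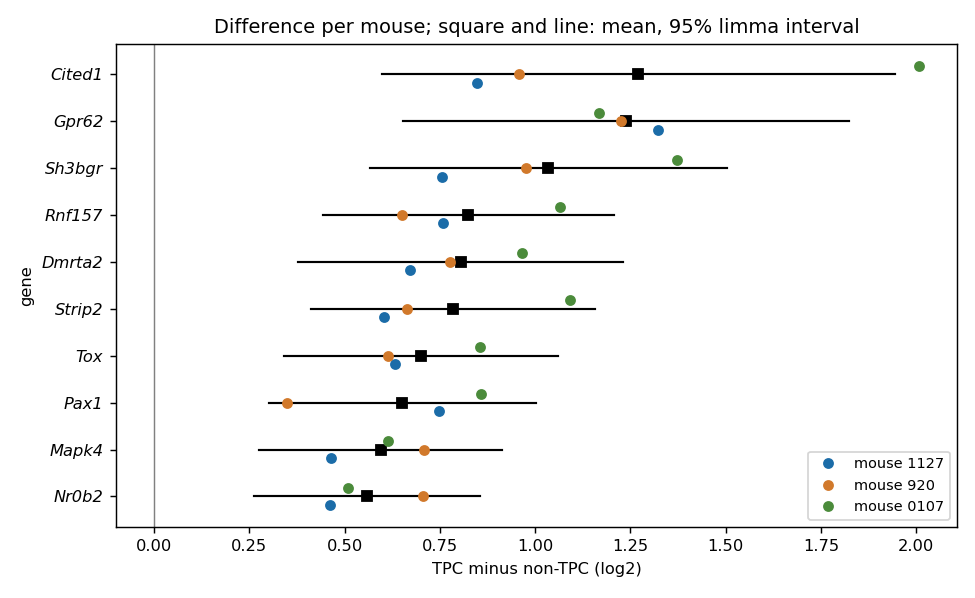
TPC minus non-TPC difference (log2) of the 10 genes in each mouse (coloured points), with the mean (square) and its 95% limma interval (line). The interval is from the fit without the mouse, is for a single gene and is not adjusted for the choice of the genes. Mouse 0107 gave the largest difference in 7 of the 10 genes, from Cited1 (2.01) to Tox (0.86).

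Among the genes for other kinds of protein, Gpr62, an orphan G protein-coupled receptor, had the most even difference between mice. Probe set 1442138_at read 5.90, 6.20 and 5.49 in TPCs and 4.57, 4.97 and 4.32 in non-TPCs of mice 1127, 920 and 0107. The mice kept their order in both fractions and the within-mouse differences were 1.32, 1.22 and 1.17. The mean difference was 1.24 (SE 0.24, 95% interval 0.65 to 1.82), or 2.36-fold. Its other probe set, 1457236_at, lay between 4.57 and 5.03 in all 6 arrays and differed by 0.05, so the mean of both probe sets gave 0.64. The first quartile of the arrays ranged from 4.52 to 4.65, and the non-TPC levels of Gpr62 lay around it.

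Sh3bgr, a small thioredoxin-like protein known from heart and skeletal muscle, read 8.31, 8.77 and 8.97 in TPCs and 7.56, 7.79 and 7.60 in non-TPCs of mice 1127, 920 and 0107 on 1422644_at. TPC arrays were more spread (SD 0.34) than non-TPC arrays (SD 0.12), and the nearest arrays of the 2 fractions were 0.52 apart. It differed by 1.03 (SE 0.20, 95% interval 0.57 to 1.50). The other Sh3bgr probe sets, 1433319_at and 1454559_at, are annotated to 1 shared accession, had means of 4.95 and 4.28 and differed by 0.08 and 0.14. With the mean of its 3 probe sets the Sh3bgr difference was 0.42. None of the 6 striated muscle markers (Myh6, Myh7, Tnnt2, Tnni3, Ckm and Actc1) was above the median level in its mean over the 6 arrays. Ckm was higher in TPCs of all 3 mice (mean difference 0.16) and Tnnt2 lower in all 3 (-0.15), beside 19.7% and 13.8% of all genes. The part of muscle cells in the Sh3bgr difference was not tested. Actc1, the cardiac actin, did read 9.87 in the non-TPC array of mouse 0107, against 5.68 to 6.29 in the other 5 arrays.

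Rnf157, a RING-type ubiquitin ligase studied in neurons, read 9.63, 9.36 and 9.52 in TPCs and 8.88, 8.71 and 8.45 in non-TPCs of mice 1127, 920 and 0107 on 1434427_a_at. It differed by 0.82 (SE 0.16, 95% interval 0.44 to 1.21). A probe set from the same accession, 1454953_at, differed by 0.49 with the same sign in 3 of 3 mice, but its fractions overlapped. The other 3 differed by 0.21 (1434902_at, no overlap), 0.23 (1453720_at) and -0.11 (1440400_at, at a mean of 6.82). The mean of all 5 probe sets gave 0.33, so the size of the Rnf157 difference depended on the probe set.

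Strip2, a scaffold of the STRIPAK phosphatase and kinase complex, and Mapk4, the atypical MAP kinase also called ERK4, were both dim. Strip2 read 5.15, 5.16 and 5.57 in TPCs and 4.55, 4.50 and 4.48 in non-TPCs of mice 1127, 920 and 0107. It differed by 0.79 (SE 0.16, 95% interval 0.41 to 1.16), with mouse 0107 highest in TPCs. Mapk4 read 4.96, 5.25 and 5.19 in TPCs and 4.49, 4.54 and 4.58 in non-TPCs, a difference of 0.59 (SE 0.13, 95% interval 0.28 to 0.91). The non-TPC levels of both lay near the first quartile of the arrays, so the size of these differences rests on dim signal, and each rests on 1 probe set.

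**Figure D3:**
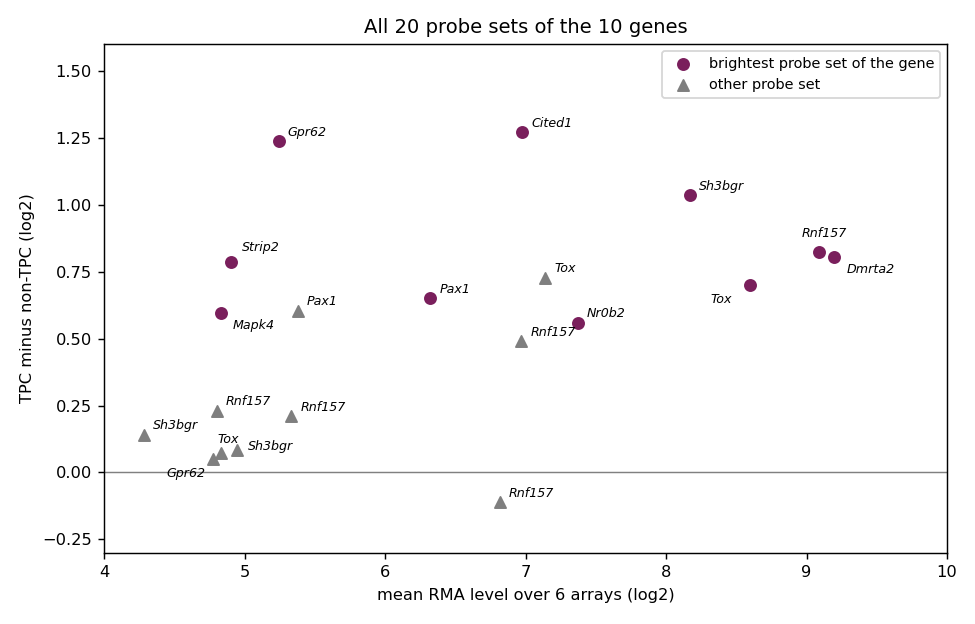
Mean RMA level over 6 arrays (log2, x axis) against the TPC minus non-TPC difference (log2, y axis) for the 20 probe sets of the 10 genes. The 10 brightest probe sets (circles) lie between 0.56 and 1.27, and the 10 others (triangles) between -0.11 and 0.73.

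Over all 20 probe sets, 16 were higher in TPCs of 3 of 3 mice, where 19.5% of the 34945 probe sets with 1 gene symbol were. The rule itself fixed 10 of those 16. Of the 10 probe sets it did not use, 6 were higher in all 3 mice, 4 in 2 mice, and 2 had fractions that did not overlap. Their median difference was 0.17. They were read from the same 6 RNA samples as the brightest ones, so they are not independent samples. For the brightest probe sets the fractions did not overlap in any of the 10 genes, as in 6.71% of all genes, and 19.7% of all genes were higher in all 3 mice. Since the choice used this contrast, nothing is read from those counts.

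In the order of unadjusted p among the 3589 genes higher in all 3 mice, the 10 stood at ranks 1 to 12, with the unnamed transcripts B330016D10Rik and D130043K22Rik at ranks 2 and 6. Pax1 was the last inside, and just outside were Lrrc75a (difference 0.90), Pithd1 (0.65) and Bhlha15 (0.65), a basic helix-loop-helix factor of secretory cells. The 10 were thus not separated by size from the genes that follow. A small p came with a large difference in Cited1 and Gpr62, whose residual SDs were 0.41 and 0.34, and with a small residual SD in Nr0b2 (0.08) and Mapk4 (0.11).

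By mouse, the median difference of the 10 was 0.71 in mouse 1127, 0.71 in mouse 920 and 1.02 in mouse 0107. Over all genes the medians were 0.07, 0.05 and -0.03. As the 10 genes were chosen as higher in every mouse and their fractions did not overlap, no sign could turn when a mouse or an array was left out, and only the size could move. The lowest values were then 0.48 for Nr0b2 and 0.54 for Mapk4, and Cited1 ranged from 0.90 without mouse 0107 to 1.48.

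The label of the cells was checked against markers of neuroendocrine tumour cells: all 8 measured (Insm1, Chga, Chgb, Syp, Uchl1, Ncam1, Ddc and Scg2) exceeded the median of all genes in their mean over the 6 arrays. Their summed level, the log2 of the summed linear signals, was 14.5 to 14.7 in TPCs and 14.0 to 14.5 in non-TPCs. 0 of 8 passed the test, and 3 were higher in TPCs of all 3 mice. Of the markers of other cells, the lists of alveolar type 1 and type 2, club, ciliated, fibroblast, endothelial, leukocyte and macrophage genes had medians below 0 in every mouse, with 2 genes lower past the limma threshold (0.0605% of all genes were), Sftpc and Sftpa1, both surfactant genes of the alveolar type 2 list. The medians of the T and NK cell list (-0.0037) and the B cell list (0.08) were near 0, and Coro1a of the leukocyte list read higher in TPCs of all 3 mice (0.43). The alveolar type 2 list (6 genes, all above the median level) summed to 10.9 to 11.1 in TPCs and 12.7 to 13.4 in non-TPCs, with 5 of 6 lower in all 3 mice. The club list (3 genes, all above the median level) summed to 13.2 to 14.2 in TPCs and 13.5 to 15.4 in non-TPCs. A level above the median thus did not set the neuroendocrine list apart from these 2 lists. The fibroblast list (5 genes, 2 above the median level) summed to 10.5 to 11.6 and 11.7 to 14.3, and the leukocyte list (4 genes, 3 above it) to 8.60 to 9.37 and 9.41 to 10.4. RMA gives no level of 0, so no marker can be called absent. The lists with medians below 0 in every mouse went the opposite way to the 10 genes, and their part in the differences was not tested. In sorted bulk RNA, fewer cells of a type and less RNA per cell cannot be told apart.

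**Figure D4:**
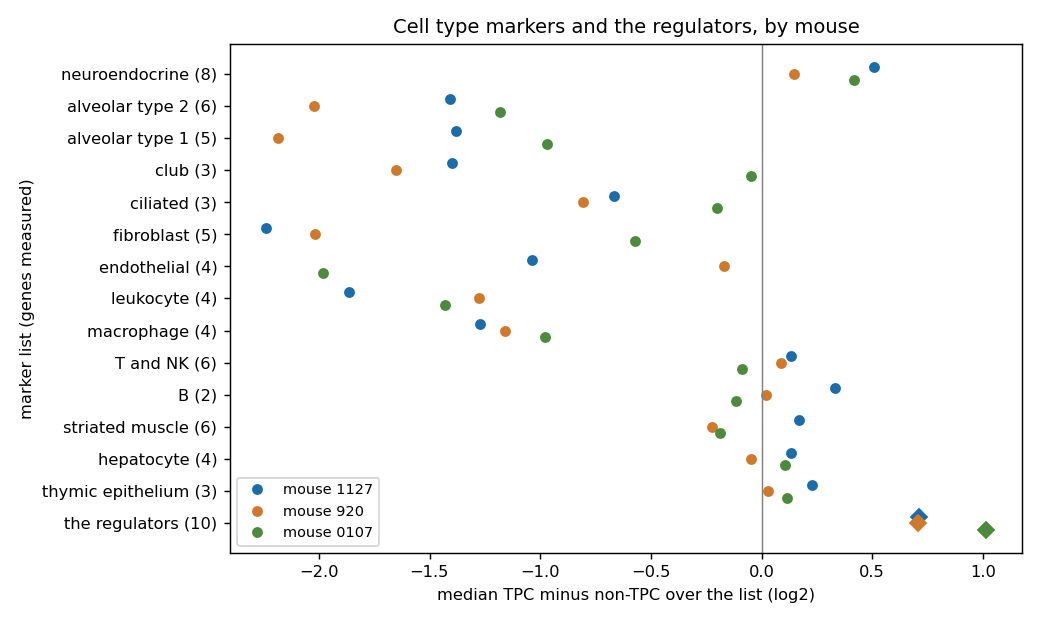
Median TPC minus non-TPC difference (log2) over each cell type marker list in mice 1127, 920 and 0107, with the number of genes measured in brackets, and the median of the 10 regulators as diamonds. The neuroendocrine list lies between 0.15 and 0.51 and the regulators between 0.71 and 1.02, while the alveolar, fibroblast, leukocyte and macrophage lists lie below 0 in every mouse.

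Set against the neuroendocrine markers of the same mouse, the differences were smaller. The median of the 8 markers was 0.51, 0.15 and 0.42 in mice 1127, 920 and 0107. After subtraction of it, 8 of the 10 genes were above 0 in every mouse, and the median over the 10 genes of the mean difference was 0.44. The genes were chosen as higher in every mouse and no share over all genes was computed, so nothing is read from this count. Cited1 was then at 0.34, 0.81 and 1.59, and Gpr62 at 0.82, 1.08 and 0.75. Nr0b2 and Mapk4 lay just below 0 in mouse 1127, at -0.05 and -0.04.

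Among relatives of the 10 genes none passed the test. Of 80 paralogs, partners and targets listed, 73 were measured, 0 were higher and 0 were lower past the limma threshold (0.0605% of all genes were called, all lower), and 3 were higher and 0 lower at an unadjusted p under 0.05. Their median difference was 0.08, beside 0.04 over all genes, and 14 of 73 were higher and 7 of 73 lower in TPCs of all 3 mice, beside 19.7% and 13.8% of all genes. The other 7 were not analysed here.

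**Figure D5:**
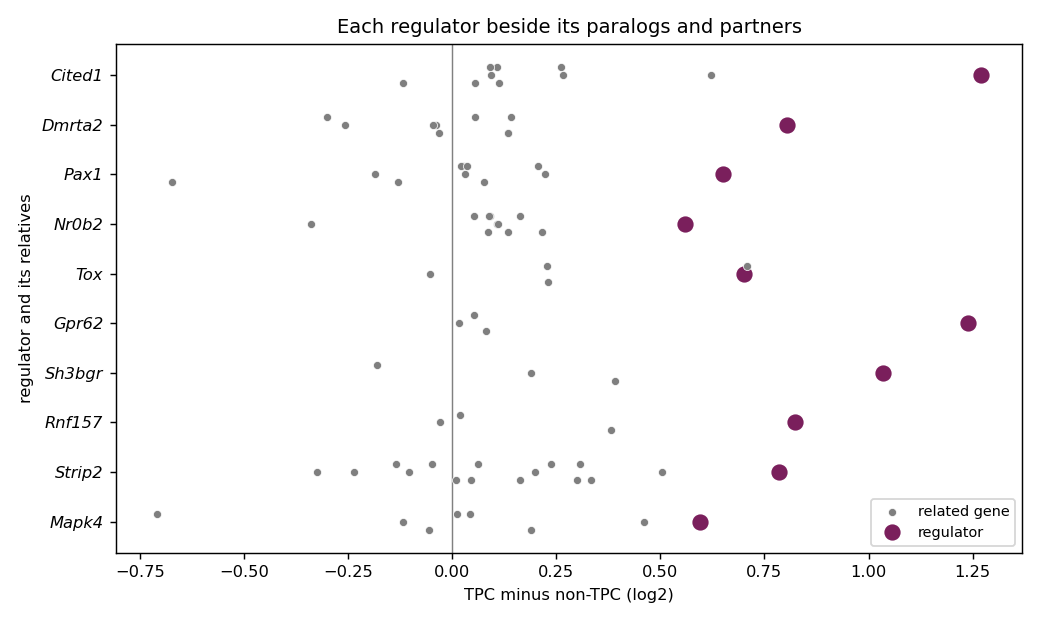
TPC minus non-TPC difference (log2) of each regulator (large points) and of its measured paralogs and partners (grey points, 73 genes in all). Each gene is shown by its brightest probe set. Tox2 (0.71) lies at the value of Tox (0.70), and in the other 9 rows the regulator has the highest value, as its choice favoured.

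Tox2, the closest relative in value, read 9.33, 9.12 and 9.01 in TPCs and 8.59, 8.03 and 8.72 in non-TPCs of mice 1127, 920 and 0107. The fractions did not overlap, and Tox2 differed by 0.71 without passing (limma adjusted p = 0.583). Those values are of its brightest probe set. With the mean of its 2 probe sets Tox2 differed by 0.43, and Tox by 0.50 with the mean of its 3. Tox4 and Kat7, a histone acetyltransferase reported to bind TOX, both differed by 0.23, and Tox3 differed by -0.05 with the sign varying between mice.

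For Cited1, the paralog Cited4 differed by 0.62 (limma adjusted p = 0.846, higher in 3 of 3 mice) and Cited2 by 0.26. With the mean of its 2 probe sets Cited4 differed by 0.35. The acetyltransferases that CITED proteins bind, Crebbp and Ep300, differed by 0.05 and 0.11, and the AP-2 factors Tfap2a, Tfap2b and Tfap2c by 0.09 to 0.11. Among 9 DM domain relatives and cortical partners of Dmrta2, Dmrta1 differed by -0.30 and Dmrt2 by -0.26, 0 of 9 were above the median level, and the list median was -0.03. The 10 measured PAX relatives and partners had a median of 0.03 and 0 members above the median level. Pax9, the nearest paralog of Pax1, differed by 0.02, and the homeobox gene Meox2 by -0.67, lower in TPCs of all 3 mice. Meox2 was dim, at a mean of 3.53, and differed by -1.46, -0.30 and -0.26 in mice 1127, 920 and 0107. With the mean of its 2 probe sets Meox2 differed by -0.41. For Nr0b2, the bile acid receptor gene Nr1h4 differed by -0.34 with its TPC arrays all below its non-TPC arrays (5.91% of all genes), and Cyp7a1, the rate-limiting enzyme of bile acid synthesis and a target that Nr0b2 represses, by 0.22 at a level of 4.17 in TPCs.

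Gpr61 and Gpr135, the receptors most like Gpr62, differed by 0.05 and 0.02. The Sh3bgr-like genes differed in sign: Sh3bgrl3 by 0.39 (higher in 3 of 3 mice), Sh3bgrl2 by 0.19 and Sh3bgrl by -0.18. Mgrn1, the paralog of Rnf157, differed by 0.02 and Fzr1, the activator of the anaphase-promoting complex, by 0.38. The STRIPAK complex had 15 measured members, all above the median level, and their median difference was 0.06. Its kinase Stk24 read 9.99, 9.74 and 9.95 in TPCs and 9.55, 9.41 and 9.21 in non-TPCs, a difference of 0.50 with no overlap (limma adjusted p = 0.574). With the mean of its 2 probe sets Stk24 differed by 0.60. The related kinase Stk25 differed by 0.33. Pdcd10, the adaptor of these kinases, differed by -0.24, lower in 3 of 3 mice. Mapk6, the paralog of Mapk4, differed by 0.04 and their shared substrate kinase Mapkapk5 by -0.12. The Nemo-like kinase Nlk differed by 0.46 and the p21-activated kinase Pak3 by -0.71. Pak3 differed by -0.16, -0.31 and -1.67 in mice 1127, 920 and 0107, and by -0.49 with the mean of its 4 probe sets.

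The genes beside the 10 on their chromosomes were examined in the same way, with the 3 nearest measured genes on each side in the order of the RefSeq table. Of these 60 neighbours 0 passed in either direction, with 1 higher and 1 lower at an unadjusted p under 0.05, and their median difference was 0.07. Of the 60, 13 (21.7%) were higher in TPCs of all 3 mice, beside 19.7% of all genes, and 7 (11.7%) were lower, beside 13.8%. The lower one with an unadjusted p under 0.05, Parp3 beside Gpr62, was named after its values were seen. It read 4.86, 5.35 and 5.73 in TPCs and 7.21, 6.71 and 5.82 in non-TPCs of mice 1127, 920 and 0107. That is a difference of -1.27 without overlap (limma adjusted p = 0.602), or -0.94 with the mean of its 3 probe sets. Kdf1, an epidermal differentiation gene near Nr0b2, had the largest positive difference, 1.71, or 1.08 with the mean of its 2 probe sets. Its brightest probe set read 9.15, 8.39 and 8.25 in TPCs and 8.07, 7.68 and 4.91 in non-TPCs of mice 1127, 920 and 0107. On it mouse 0107 gave 3.35 of difference, against 1.08 and 0.71 in mice 1127 and 920. Foxa2, a forkhead factor of endoderm beside Pax1, and Cdkn2c, a CDK inhibitor beside Dmrta2, had most of their differences in the same mouse (1.53 and 1.41 in mouse 0107, against 0.22 and 0.15, and 0.44 and 0.54, in mice 1127 and 920). The other 10 were Gm9112 (0.20), Faf1 (0.40), Agbl4 (0.25), Gpatch3 (0.23), Cyp7a1 (0.22), Iqcf1 (0.14), Itgb2l (0.27), Nrf1 (0.06), Me2 (0.21) and D730045A05Rik (0.53).

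The genes most like each of the 10 in pattern were sought among the named genes above the median level. The measure was the root mean square difference between mean-centred log2 values over the 6 arrays. The 10 were chosen on these same arrays by a small p for a TPC rise. That choice favours likeness to each other and to the genes that follow in rank, so nothing is read from it about shared regulation. Tox and Rnf157 were each nearest to the other, at 0.07. Nr0b2 was nearest to Mapk4, at 0.06, and the nearest to Nr0b2 itself were Hspb11 and Higd1a, a mitochondrial protein (both 0.07). Pax1 was most like Hoxb5, a homeobox factor (0.06), and Tmem164 (0.11), and Strip2 most like Flywch2 (0.10) and Tmem164 (0.11). Dmrta2 was most like Tmem64 (0.13) and Abhd15 (0.14), and Sh3bgr most like Cirbp, a cold-inducible RNA-binding protein (0.16), and Syt17 (0.17). For Cited1 the nearest were Cryba2 (0.16) and Ripply3 (0.17), which were also widest apart in mouse 0107, by 1.80 and 2.26. For Gpr62 the nearest were Hspa2 at 0.22 and Nipal3 at 0.27. Gpr62 itself lies below the median level, where no gene was searched. Second to Tox stood Mlh3 (0.09), to Rnf157 Lrrc75a (0.11) and to Mapk4 Hspb11 (0.08).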

How the data were processed

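RNA of the 6 sorted samples was measured on 1-colour Affymetrix arrays with targets made by the WT Plus kit, a whole-transcript labelling kit, per the labels' protocols. The platform annotation is that of an array with probes near the 3′ end of transcripts, and how kit and array were combined, which could affect how probe sets of a gene differ, the labels do not say. The authors deposited 1 log2 value per probe set and array, computed by RMA according to the submitters' processing notes. The version of RMA and the log base are not stated, and log2 was inferred from values between 2.70 and 14.81. Probe sets were named from the platform annotation (34945 with 1 symbol, 932 with several, 9160 with none, 64 controls), with symbols updated through Entrez identifiers to RefSeq (18032 of 18193 genes), and a gene was represented by its brightest probe set. Fractions were compared over all genes with limma 3.58.1 in R 4.3.3 (lmFit, eBayes, two-sided, Benjamini-Hochberg, threshold 0.05). The fit was also run on simulated arrays that were independent of each other. That run held no mouse effect, so it does not show how the fit behaves on paired arrays.

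The members and lists were chosen with earlier results of these data known. Both fractions of a mouse come from 1 animal, so they are paired. Deviations from the fraction means correlated at 0.30, 0.46 and 0.36 in mice 1127, 920 and 0107, and at most -0.08 between mice. The deviations of the 3 arrays of a fraction cancel out, so positive values within mice push those between mice to be negative. The negative values are therefore not separate support for the pairing. Relatives were named by size of difference or by role after their values were seen, so the named ones are not the largest of each list. Among those not named were Smad4 (0.27) of the CITED list and Pax7 (0.22) of the PAX list. Cttnbp2nl (-0.32), Stk26 (0.31) and Ppp2r1a (0.30) of the STRIPAK list were not named either. Neighbours were named when higher in all 3 mice, and look-alikes as the nearest 2. With 3 arrays a fraction, the number of arrays limits the precision, and p-values measure the spread between these mice.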

Additional observations from a re-analysis of the deposited data

How the results depend on the processing

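All 156 values of the 10 genes under 16 alternatives missed the limma threshold. Their direction was fixed by the choice of the genes wherever an alternative leaves the values as they are, and nothing is read from it. With the mouse as a replicate block their adjusted p ran from 0.0731 (Gpr62) to 0.309 (Pax1), 13 genes were called lower and 0 higher, and the block changed no call among the 10 genes, their relatives or neighbours. The count of genes called lower, 11, was 39 with the mouse as a random block, 4 with the mean of all probe sets of a gene, and 0 to 84 when a mouse or an array was left out (0 without both arrays of mouse 1127, and 84 when the non-TPC array of mouse 0107 was left out); 0 genes were higher in each of these. The median difference of the 10 genes, 0.80, was 0.61 with the mean of all probe sets and, in an alternative chosen after seeing the data, 0.45 with arrays centred on the neuroendocrine markers, where it was computed without a test. With genes above the median level alone, 6 of the 10 were in the fit. Pax1, Gpr62, Strip2 and Mapk4 lie below that level, where signal over background limits the size of a difference.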
